A study of Mus musculus with 8 samples.

Results

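A set of 10 genes of fatty acid and ether lipid synthesis was followed in tumor cells sorted by their expression of the Notch ligand Dll1. They were Fasn, Acaca, Acly, Scd1, Scd2, Elovl6 and Srebf1 for fatty acid synthesis and Far1, Gnpat and Agps for ether lipid synthesis. The 10 genes were selected by function and on values from these same libraries, so that their differences between the groups are a description and carry no test. All 10 had a row among the 53697 genes listed, and all 10 were kept by the low-count filter, which left 18322 genes to test.

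RNA came from mammary tumors of MMTV-PyMT mice, a luminal-like breast cancer model in which the MMTV promoter drives the Polyoma Middle T oncogene in mammary epithelium. All 4 mice carried this transgene together with a Dll1 reporter, and no sample was treated. In GFP mice (n = 2) the reporter was a knock-in at Dll1, and in mCh mice (n = 2) it was a BAC-based mCherry reporter. Tumors were dissociated, CD45+, CD31+ and Ter119+ cells were removed, and the remaining cells were sorted into reporter-positive (Dll1+) and reporter-negative (Dll1-) cells, giving 1 library of each kind from each mouse. The age of the animals is not given in the sources used here. Because each reporter was carried by its own mice, the reporter line cannot be told apart from any other difference between those mice.

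Estimated counts summed to between 27301396 and 123907626 per library, and each of the 10 genes had at least 1202 counts in every library. Levels are given as CPM, counts scaled to a library of 1000000 counts after TMM scaling. Dll1 itself was between 7.61 and 50.3 CPM in the Dll1- libraries and between 87.5 and 250.2 CPM in the Dll1+ libraries. Epcam, which marks epithelial cells, was between 899 and 1239.5 CPM in all 8 libraries. It was higher in Dll1+ cells by log2 differences of 0.26 and 0.16 in GFP mice and 0.33 and 0.46 in mCh mice. Its Dll1+ and Dll1- libraries did not overlap, as for 6.07% of all tested genes. The 6 fibroblast markers summed to between 984.5 and 1218 CPM in the GFP libraries and to 2978 and 3231 CPM in the mCh Dll1+ libraries. In the mCh Dll1- libraries the same sum was 7426 CPM in mouse 1 and 21349 CPM in mouse 2, so that these libraries stood apart in stromal RNA. Endothelial, pericyte and immune marker sums were also highest in these 2 libraries. Pecam1 (CD31) ranged from 13.7 to 98.2 CPM and Ptprc (CD45) from 2.9 to 12.7 CPM.

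Fatty acids are built in the cytosol from citrate. Acly cleaves citrate to acetyl-CoA, Acaca carboxylates acetyl-CoA to malonyl-CoA, Fasn joins these units to palmitate, Elovl6 lengthens palmitate to stearate, and Scd1 and Scd2 place a double bond in the chain. Srebf1 encodes the transcription factors SREBP-1a and SREBP-1c, which raise the expression of many of these enzymes. Ether lipids, which include the plasmalogens, begin in the peroxisome, where Gnpat and Agps form the ether-linked backbone with a fatty alcohol supplied by Far1. The genes of the cytosolic pathway lie at chr11:120805846-120824547 (Fasn, minus strand), chr11:84129672-84401651 (Acaca, plus), chr11:100476353-100528000 (Acly, minus), chr3:129532355-129638495 (Elovl6, plus) and chr11:60199089-60222581 (Srebf1, minus) of GRCm38, and those of ether lipid synthesis at chr7:113513834-113571511 (Far1, plus), chr8:124863033-124890057 (Gnpat, plus) and chr2:75832177-75931350 (Agps, plus). All are protein-coding. In the mammary gland, fatty acid synthesis is best known for making milk fat during lactation.

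The promoters of Fasn, Acly and Far1 are shown because these genes span the range of differences described here, with Acly and Fasn lower and Far1 higher in Dll1+ cells. Each run covers 250 bases before and 50 bases after the annotated start, as given by RefSeq on GRCm38.p6, read 5′ to 3′ on the strand of the gene. Capitals mark CCAAT and GGGCGG on either strand.
Fasn (chr11:120824498-120824797, minus strand): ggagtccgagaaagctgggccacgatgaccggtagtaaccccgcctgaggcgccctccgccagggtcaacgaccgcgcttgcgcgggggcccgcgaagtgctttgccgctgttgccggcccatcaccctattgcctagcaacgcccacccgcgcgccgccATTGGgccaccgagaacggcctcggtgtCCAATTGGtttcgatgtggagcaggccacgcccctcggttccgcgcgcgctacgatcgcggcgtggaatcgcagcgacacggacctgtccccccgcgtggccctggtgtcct
Acly (chr11:100527951-100528250, minus strand): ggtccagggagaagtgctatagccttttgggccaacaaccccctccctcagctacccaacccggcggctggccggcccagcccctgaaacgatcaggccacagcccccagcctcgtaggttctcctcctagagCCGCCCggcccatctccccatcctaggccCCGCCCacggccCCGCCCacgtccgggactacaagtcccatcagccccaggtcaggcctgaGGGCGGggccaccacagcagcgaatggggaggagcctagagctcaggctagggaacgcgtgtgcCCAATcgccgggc
Far1 (chr7:113513584-113513883, plus strand): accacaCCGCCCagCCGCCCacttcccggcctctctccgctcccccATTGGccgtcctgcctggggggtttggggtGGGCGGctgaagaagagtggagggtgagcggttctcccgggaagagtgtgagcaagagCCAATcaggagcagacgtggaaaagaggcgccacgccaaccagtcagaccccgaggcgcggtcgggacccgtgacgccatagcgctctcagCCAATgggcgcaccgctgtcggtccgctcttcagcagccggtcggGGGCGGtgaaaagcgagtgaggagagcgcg
CCAAT was found at 3 places in the Fasn window, 1 in the Acly window and 3 in the Far1 window. In the Fasn window, the matches that begin 62 and 59 bases before the start overlap each other on opposite strands, and they also overlap a CANNTG match. GGGCGG was found at 4 places in the Acly window and 4 in the Far1 window, and at 0 in the Fasn window. Of all 32851 promoters in the table, 37.4% held CCAAT and 35.7% held GGGCGG. The sterol element TCACNCCAC, held by 1.24% of all promoters, was found in none of the windows of the 8 genes with an entry, which were Fasn, Acaca, Acly, Elovl6, Srebf1, Far1, Agps and Gnpat. The only Acaca window, chr11:84195188-84195487, lies at a start inside the gene, so the region before the first base of the gene was not searched. CACGTG, held by 7.15% of all promoters, was found in the Gnpat window and in none of the windows of the other genes. These are matches of letters, and an absent match says only that the letters are not in the window.

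Per length of exon, the 10 genes covered a wide range of levels, and the top of the order was the same in each of the 8 libraries. Srebf1 was highest at 459 ± 98.2 CPM per kb (SD, n = 8 libraries), followed by Scd1 at 281 ± 86.2, Scd2 at 151 ± 35.4, Acly at 60.3 ± 14.9 and Fasn at 49.6 ± 9.57 CPM per kb. Below these 5 genes the ranks changed from library to library. Gnpat averaged 22.8 ± 2.78 CPM per kb, Far1 15.6 ± 8.97, Agps 9.16 ± 2.85, Elovl6 7.72 ± 2.06 and Acaca 5.46 ± 1.20 CPM per kb, and Far1 ranged from 6th to 9th. With the length of the longest transcript in place of the merged exons, the means of Acaca and Elovl6 exchanged places, and in GFP Dll1+ cells of mouse 1 Far1 (50.2 CPM per kb) passed Fasn (45.2), so that the order of the top 5 then held in 7 of the 8 libraries. Counts of Srebf1 were summed over its transcripts, so SREBP-1a and SREBP-1c were not separated.

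Over the 4 mice, 3 of the 10 genes (Fasn, Acly and Elovl6) were lower in Dll1+ cells and 1 (Far1) was higher at an adjusted p under 0.05 in edgeR's quasi-likelihood test. Among all tested genes 7.04% were lower and 6.98% higher by the same rule. Since these contrasts were known when the genes were chosen, nothing is read from that comparison. The median log2 fold change of the 10 genes was -0.20, and that of all tested genes was -0.00068. Of the 10, 9 moved one way in all 4 mice, as did 41.3% of all tested genes, and Acly alone had Dll1+ and Dll1- libraries that did not overlap, as did 6.07% of all tested genes.

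**Figure D1:**
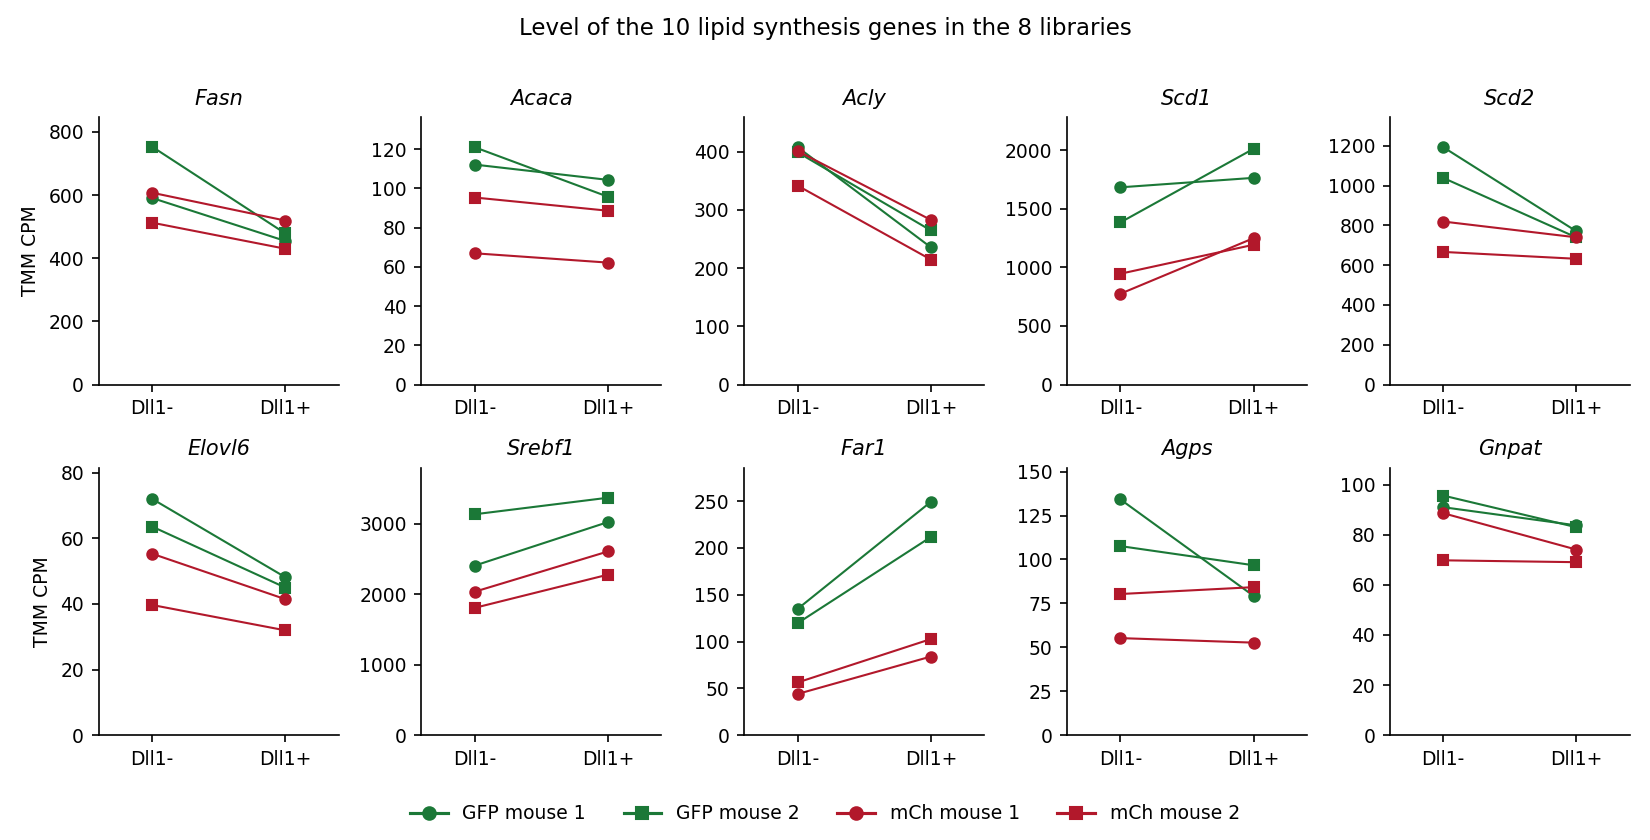
Level (TMM CPM, linear axis from 0) of each of the 10 genes in the Dll1- and Dll1+ library of each mouse, with a line joining the libraries of 1 mouse. Acly fell from 342 to 408 CPM in Dll1- libraries to 215 to 283 CPM in Dll1+ libraries, and the Far1 line rose in every mouse.

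Acly, which supplies cytosolic acetyl-CoA, showed the clearest separation. Its level was 408 CPM in Dll1- and 236 CPM in Dll1+ cells of GFP mouse 1, 399 and 265 CPM in GFP mouse 2, 401 and 283 CPM in mCh mouse 1, and 342 and 215 CPM in mCh mouse 2. The highest Dll1+ library was below the lowest Dll1- library, and both reporters gave similar levels. The fitted log2 fold change was -0.64 ± 0.07 (SE, 4 mice), which is 0.642 of the Dll1- level. Within mice the log2 differences were -0.79, -0.59, -0.50 and -0.67 in GFP mice 1 and 2 and mCh mice 1 and 2.

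Fasn, the multi-enzyme synthase that makes palmitate, was 591 CPM in Dll1- and 455 CPM in Dll1+ cells of GFP mouse 1, 753 and 478 CPM in GFP mouse 2, 607 and 519 CPM in mCh mouse 1, and 513 and 429.9 CPM in mCh mouse 2. Each mouse had less Fasn in its Dll1+ cells, but the groups overlapped because mCh mouse 1 had more in its Dll1+ cells than mCh mouse 2 had in its Dll1- cells. The log2 fold change was -0.38 ± 0.09 (SE, 4 mice). The difference within GFP mice, -0.52 ± 0.11, was larger in size than the -0.24 ± 0.11 within mCh mice, and the difference between these values, 0.28 ± 0.15, did not pass the threshold.

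Elovl6, the elongase acting on palmitate, was lower in Dll1+ cells of every mouse. Its levels were 72.0 and 48.2 CPM (Dll1- and Dll1+) in GFP mouse 1, 63.6 and 45.0 CPM in GFP mouse 2, 55.3 and 41.5 CPM in mCh mouse 1, and 39.7 and 32.0 CPM in mCh mouse 2. The log2 fold change was -0.45 ± 0.06 (SE, 4 mice). The groups overlapped through mCh mouse 2, whose Dll1- library was below 3 of the Dll1+ libraries.

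Acaca, the carboxylase between Acly and Fasn, had a smaller difference. Its levels were 112 and 104 CPM in Dll1- and Dll1+ cells of GFP mouse 1, 121 and 95.7 CPM in GFP mouse 2, 66.9 and 62.2 CPM in mCh mouse 1, and 95.4 and 88.6 CPM in mCh mouse 2. The log2 fold change was -0.16 ± 0.06 (SE, 4 mice), and the differences between mice were larger than those within them. Of the 31-base words in Acaca transcripts, 31.7% also lie in Gm5182, which had at most 0.451 CPM in any library, so reads shared between them could not be assigned by sequence alone.

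The 2 desaturases had differences of opposite sign. Scd1 was 1682 and 1763 CPM in Dll1- and Dll1+ cells of GFP mouse 1, 1383 and 2011 CPM in GFP mouse 2, 774 and 1249 CPM in mCh mouse 1, and 945 and 1192 CPM in mCh mouse 2. It was higher in Dll1+ cells of all 4 mice, with a log2 fold change of 0.41 ± 0.12 (SE), but the within-mouse difference ranged from 0.07 to 0.69. Scd2 was 1193 and 769.8 CPM in Dll1- and Dll1+ cells of GFP mouse 1, 1038 and 739 CPM in GFP mouse 2, 819 and 739.6 CPM in mCh mouse 1, and 666 and 632 CPM in mCh mouse 2. It was lower in Dll1+ cells of all 4 mice, with a log2 fold change of -0.34 ± 0.12 (SE). Most of this was in GFP mice, at -0.56 ± 0.11, against -0.11 ± 0.10 in mCh mice.

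The ratio of Scd1 to Scd2 per length of exon was higher in the Dll1+ than in the Dll1- library of every mouse. It was 1.57 and 2.56 in GFP mouse 1, 1.49 and 3.04 in GFP mouse 2, 1.06 and 1.89 in mCh mouse 1, and 1.58 and 2.11 in mCh mouse 2. The lowest Dll1+ ratio exceeded the highest Dll1- ratio. A higher ratio within each mouse follows from the opposite signs of Scd1 and Scd2, and how often other gene pairs separate in this way was not determined. Neither gene passed the threshold over 4 mice (adjusted p = 0.073 for Scd1 and 0.108 for Scd2 in edgeR). Both genes lie on chromosome 19, Scd2 at chr19:44293674-44306864 and Scd1 at chr19:44394455-44407879, and 5.18% of the 31-base words of Scd1 transcripts also occur in those of Scd2.

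Srebf1 was 2407 and 3026 CPM in Dll1- and Dll1+ cells of GFP mouse 1, 3136 and 3371 CPM in GFP mouse 2, 2037 and 2609 CPM in mCh mouse 1, and 1808 and 2279 CPM in mCh mouse 2. It was thus higher in Dll1+ cells of each mouse, while Acly, Fasn and Elovl6 were lower in the same libraries. The log2 fold change of Srebf1, 0.28 ± 0.09 (SE), did not pass the threshold over 4 mice (adjusted p = 0.086 in edgeR). Its spread between mice was larger than the difference within them, and the groups overlapped. Rai1, on the opposite strand, overlaps Srebf1 and was at 71.6 to 130.2 CPM.

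**Figure D2:**
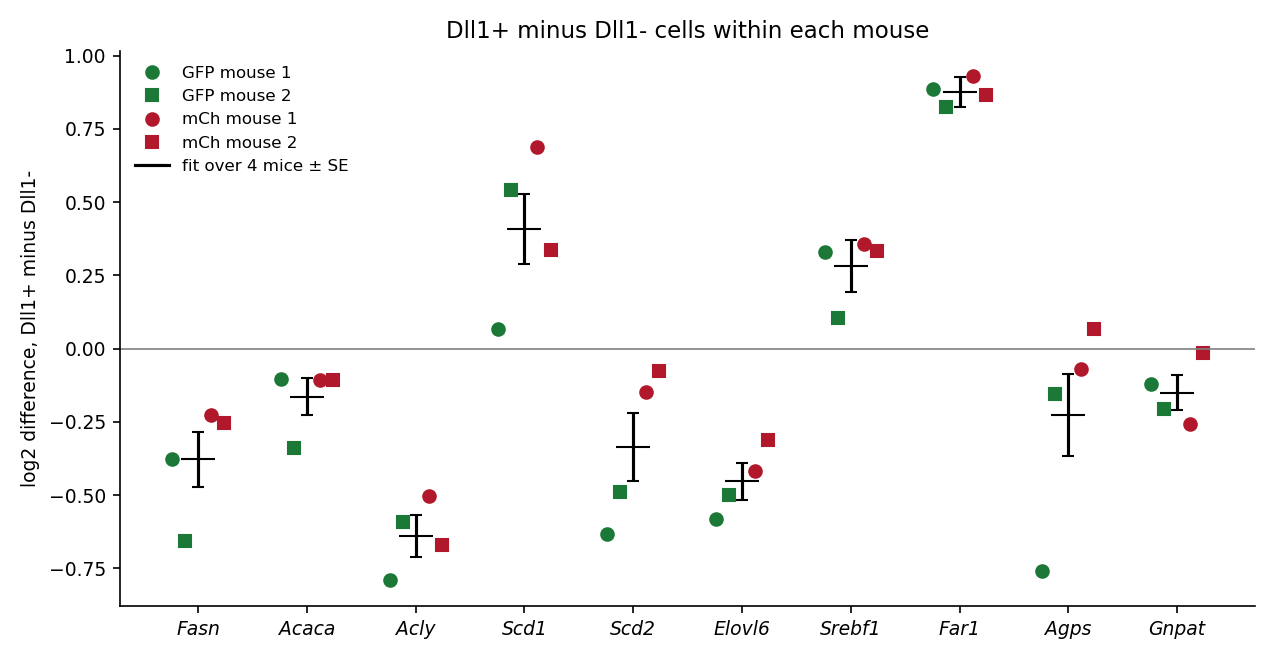
Log2 difference, Dll1+ minus Dll1-, of the 10 genes in each of the 4 mice (points) and the fitted value over 4 mice with its SE (black). Far1 sits between 0.82 and 0.93 in all 4 mice, Acly between -0.79 and -0.50, and Agps spreads from -0.76 to 0.07.

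Far1, the reductase that makes the fatty alcohol for ether lipids, had the largest difference of the 10 genes. It was 135 and 249 CPM in Dll1- and Dll1+ cells of GFP mouse 1, 119.6 and 212 CPM in GFP mouse 2, 44.1 and 84.1 CPM in mCh mouse 1, and 56.3 and 103 CPM in mCh mouse 2. Each Dll1+ library had nearly the same excess over its partner, with log2 differences of 0.89, 0.82, 0.93 and 0.87 and a fitted value of 0.88 ± 0.05 (SE, 4 mice), a 1.84-fold higher level. The Dll1+ and Dll1- libraries overlapped across mice because Far1 was lower in mCh than in GFP mice whatever the Dll1 status.

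The other 2 enzymes of the ether lipid start did not follow Far1. Gnpat, the acyltransferase of the first step, was 91.0 and 83.7 CPM in Dll1- and Dll1+ cells of GFP mouse 1, 95.6 and 82.98 CPM in GFP mouse 2, 88.6 and 74.1 CPM in mCh mouse 1, and 69.8 and 69.0 CPM in mCh mouse 2, with a log2 fold change of -0.15 ± 0.06 (SE). Agps, which exchanges the acyl chain for the alcohol, was 134 and 79.3 CPM in GFP mouse 1, 108 and 96.7 CPM in GFP mouse 2, 55.3 and 52.7 CPM in mCh mouse 1, and 80.4 and 84.3 CPM in mCh mouse 2. Its log2 fold change of -0.23 ± 0.14 (SE) rested mainly on GFP mouse 1, and without that mouse it was -0.05. The ratio of Far1 to Gnpat per length of exon was 0.66 and 1.33 in Dll1- and Dll1+ cells of GFP mouse 1, 0.56 and 1.14 in GFP mouse 2, 0.22 and 0.51 in mCh mouse 1, and 0.36 and 0.66 in mCh mouse 2.

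By reporter, the 10 genes kept their direction, with Agps close to 0 in mCh mice at -0.00063 ± 0.15. In GFP mice, Fasn, Acly, Scd2 and Elovl6 were lower at an adjusted p under 0.05 (4.84% of all genes) and Far1 was higher (4.29% of all genes). In mCh mice, Acly and Elovl6 were lower (6.25% of all genes) and Far1 was higher (5.51% of all genes). Both sets of calls use a spread estimated over all 8 libraries. Fitted alone, the 4 mCh libraries gave calls for 0 of all genes, and the 4 GFP libraries for 2337. The test of the difference between reporters called 0 of the 10 genes in edgeR and 0 in DESeq2, against 0.071% of all genes, with 1 gene (Scd2, 0.45 ± 0.15) at an unadjusted p under 0.05. Leaving out either GFP mouse left 0 of the 10 genes called in GFP mice, and in mCh mice the lower genes numbered 1 without GFP mouse 1 or mCh mouse 1 and 0 without GFP mouse 2 or mCh mouse 2. Without the replicate block 0 were called in either reporter. Each mCh value minus its GFP value was positive, from 0.02 for Gnpat to 0.45 for Agps.

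Far1 and Acly passed the threshold over 4 mice in all 9 alternative fits, including a fit without the replicate block by mouse, which called 1 of the 10 genes lower (Acly) in place of 3. Fasn, with a log2 fold change of -0.37 without GFP mouse 1, -0.28 without GFP mouse 2, -0.43 without mCh mouse 1 and -0.42 without mCh mouse 2, lost its call in each case, and Elovl6 lost it without GFP mouse 1 (-0.41), GFP mouse 2 (-0.43) and mCh mouse 1 (-0.46). Calls over all genes fell from 2568 to 433 without GFP mouse 1, 779 without GFP mouse 2, 405 without mCh mouse 1 and 2401 without mCh mouse 2.

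Between the reporter lines, all 10 genes had lower fitted values in mCh than in GFP Dll1- cells. Scd1 (log2 fold change -0.83 ± 0.16), Scd2 (-0.59 ± 0.15) and Far1 (-1.34 ± 0.17) were lower at an adjusted p under 0.05, against 17.9% of all genes lower and 18.7% higher. In Dll1+ cells, Scd1 (-0.63 ± 0.16) and Far1 (-1.30 ± 0.17) were lower, against 15.4% of all genes lower and 15.2% higher. Far1 in mCh cells was thus 0.394 of its GFP level in Dll1- and 0.405 of it in Dll1+ cells. Acly differed little between the lines, at -0.12 ± 0.16 in Dll1- and -0.01 ± 0.16 in Dll1+ cells. The GFP and mCh libraries did not overlap for Acaca, Scd1 and Far1, as for 43.4% of all tested genes. With 2 mice in each line, these values rest on few animals, and leaving out either GFP mouse removed every call. Without mCh mouse 1 the lower genes numbered 6 in Dll1- and 4 in Dll1+ cells, and without mCh mouse 2 they numbered 4 in each, with Scd2 in Dll1- cells at -0.40 and no longer called.

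**Figure D3:**
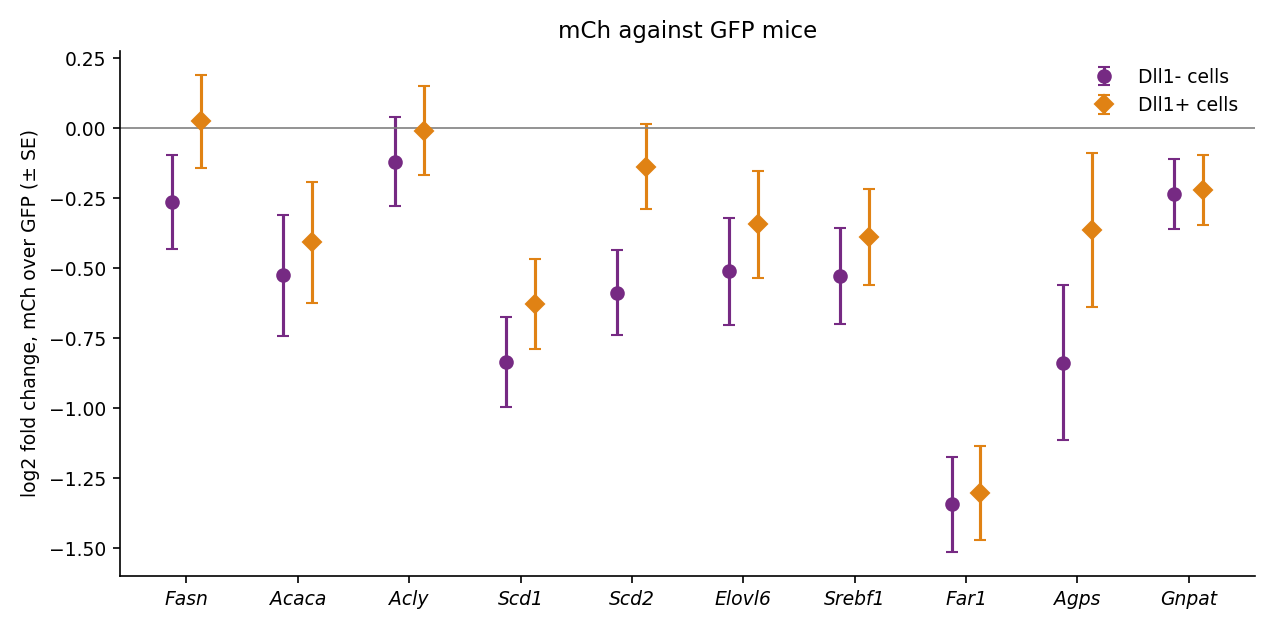
Fitted log2 fold change, mCh over GFP mice, with its SE, of the 10 genes in Dll1- cells (circles) and Dll1+ cells (diamonds), 2 mice against 2. Far1 is lowest at -1.34 and -1.30, and Acly and the Dll1+ value of Fasn lie near 0.

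Fibroblast marker sums also differed between the groups compared, and the stromal share of the RNA was not estimated. Within mCh mice the fibroblast marker sum was lower in Dll1+ cells by log2 differences of -1.32 and -2.72, against -0.12 and -0.10 within GFP mice, and its part in the values of the 10 genes was not tested. The Dll1 log2 fold change of Acly was -0.69 ± 0.10 in GFP and -0.59 ± 0.10 in mCh mice. That of Far1 was 0.85 ± 0.07 and 0.90 ± 0.08. Those of Fasn (-0.52 and -0.24), Scd2 (-0.56 and -0.11) and Agps (-0.46 and -0.00063) were further apart in GFP and mCh mice. Without mCh mouse 2, the values over the other 3 mice were -0.63 for Acly and 0.88 for Far1. Only these 2 genes are given here for that fit, and nothing about stroma is read from it. In these bulk samples, fewer cells of a type and less RNA per cell cannot be told apart.

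Adipocyte markers were low, and they differed among themselves. The 8 adipocyte markers summed to 2.56 to 11.03 CPM per library, highest in the Dll1- library of mCh mouse 2. Adipoq, which defines adipocytes, had 0 counts in 4 libraries and at most 0.628 CPM, and Lep also had 0 counts in 4. A floor of 3 counts corresponds to between 0.0242 and 0.110 CPM in these libraries, and it covers counting error only. Plin4 (1.399 to 3.89 CPM) and Pparg (0.624 to 3.997 CPM) were above that floor in every library. The part of adipocyte RNA in the values of the 10 genes was not tested.

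Proliferation, basal, secretory, luminal and red cell marker sums each moved one way with Dll1 status in every mouse. The sum of 8 proliferation markers was lower in Dll1+ cells by log2 differences of -1.12, -1.16, -1.06 and -0.65 in GFP mice 1 and 2 and mCh mice 1 and 2, and all 8 markers passed the threshold over 4 mice. The sum of 8 secretory alveolar markers, most of it the casein Csn3, was higher by 0.86, 0.91, 0.87 and 0.48, and 1 of the 8 passed the threshold. The sum of 6 basal epithelial markers was higher in Dll1+ cells by 1.25, 0.70, 1.97 and 1.20 in the same order of mice, and 2 of the 6 passed the threshold, the basal keratin Krt5 (log2 fold change 2.77, adjusted p = 0.0073 in edgeR) and Trp63, a transcription factor of basal cells (1.08, adjusted p = 0.046 in edgeR). In CPM, the basal sum was 127 to 636 in Dll1- and 205 to 1464 in Dll1+ libraries. The sum of 6 luminal markers was higher by 0.12, 0.18, 0.24 and 0.41, and 0 of the 6 passed the threshold in edgeR. The red cell sum, between 3.66 and 108 CPM, was lower by -0.85, -0.78, -1.44 and -1.24, and of 3 red cell markers tested 1 passed, Hba-a1 (-1.21, adjusted p = 0.013 in edgeR). The part of any of these in the values of the 10 genes was not tested.

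**Figure D4:**
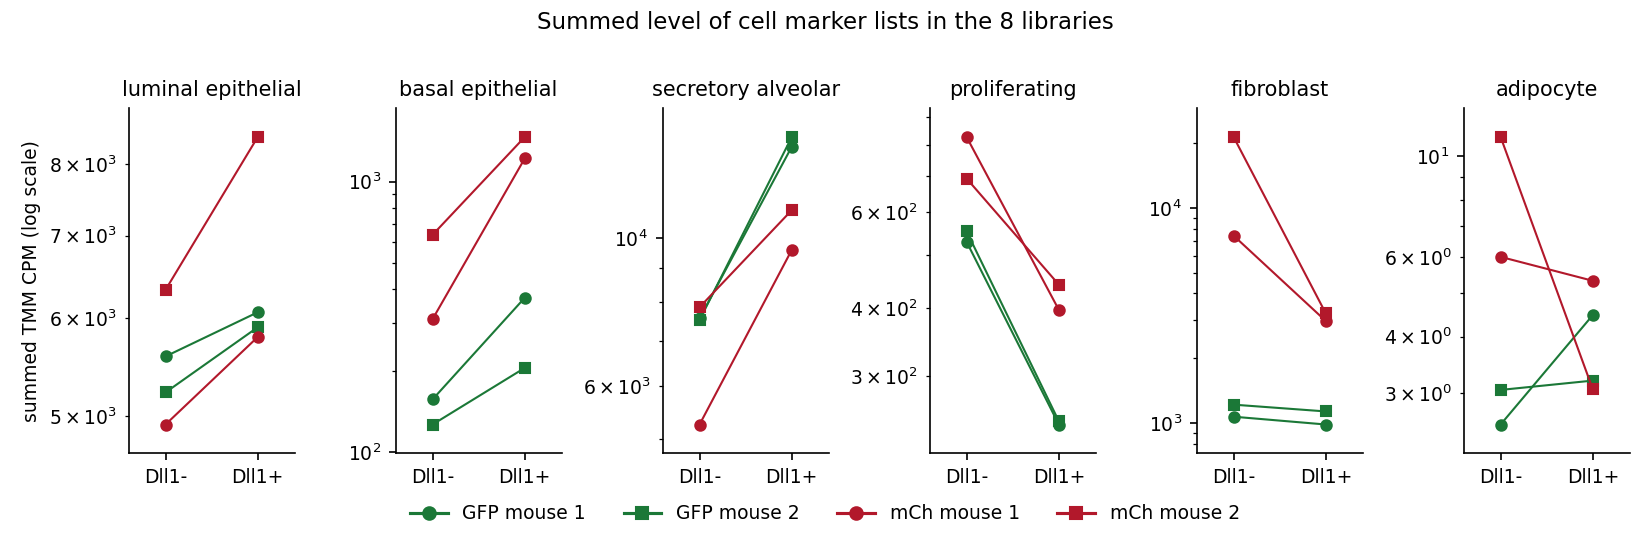
Summed level (TMM CPM, log axis) of 6 marker lists in the Dll1- and Dll1+ library of each mouse, with a line joining the libraries of 1 mouse. Proliferation markers are lower and basal and secretory alveolar markers higher in Dll1+ cells of all 4 mice, the fibroblast sum reaches 21349 CPM in the Dll1- library of mCh mouse 2, and the adipocyte sum is at most 11.03 CPM.

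Among other genes of fatty acid synthesis, elongation and desaturation, calls in Dll1+ cells were mostly lower. Of 26 tested, 4 fell (Acacb, Mid1ip1, Thrsp and Mecr) and 1 rose (Me1), against 7.04% of all genes lower and 6.98% higher in this comparison, with a median log2 fold change of -0.08. DESeq2 called 8 lower and 2 higher. It also called more of all genes than edgeR did over 4 mice, 4362 against 2568 in either direction. Acacb, the mitochondrial relative of Acaca that controls fatty acid entry into mitochondria, fell from 16.2 to 25.2 CPM in Dll1- libraries to 9.26 to 15.8 CPM in Dll1+ libraries, without overlap (log2 fold change -0.71 ± 0.07, adjusted p = 0.0065 in edgeR). Mid1ip1, which promotes polymerization of the carboxylases, fell by 0.65 ± 0.07 on the log2 scale (adjusted p = 0.0072 in edgeR). Its relative Thrsp, a lipogenic factor of the mammary gland, fell by 1.21 ± 0.17 (adjusted p = 0.015 in edgeR), from 272 to 105 CPM in GFP mouse 1, 282 to 83.6 in GFP mouse 2, 435 to 249 in mCh mouse 1 and 198 to 106 in mCh mouse 2. Me1, the cytosolic malic enzyme that supplies NADPH for lipid synthesis, rose by 0.39 ± 0.06 (adjusted p = 0.014 in edgeR) and was higher in Dll1+ cells of 4 of 4 mice. Its call was lost without the replicate block and without GFP mouse 1, GFP mouse 2 or mCh mouse 1, and the lower genes numbered 2 without GFP mouse 1. Calls over all genes numbered 1207, 433, 779 and 405 in these 4 fits, against 2568 in the main fit.

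Of 23 other genes of ether lipid synthesis and peroxisome import, 2 rose (Pex11a and Pex13) and 2 fell (Tmem189 and Tmem86a), shares close to those of all genes (6.98% higher and 7.04% lower), with a median of 0.04. DESeq2 called 4 higher and 3 lower, where it called 4362 of all genes and edgeR 2568. Pex11a, which acts in peroxisome division, rose by 0.34 ± 0.06 (adjusted p = 0.025 in edgeR), and Pex13, a part of the import machinery, rose by 0.27 ± 0.05 (adjusted p = 0.031 in edgeR) from 31.01 to 31.7 CPM in Dll1- libraries to 36.8 to 39.8 CPM in Dll1+ libraries. Tmem189, the desaturase that completes plasmalogens, fell by 0.28 ± 0.06 (adjusted p = 0.033 in edgeR), and Tmem86a, a lysoplasmalogenase, fell by 0.69 ± 0.15 (adjusted p = 0.038 in edgeR). All 4 calls were lost when GFP mouse 1, GFP mouse 2 or mCh mouse 1 was left out, where 0 of these genes passed in either direction. Calls over all genes also fell in these fits, from 2568 to 433, 779 and 405. Far2, the relative of Far1, was not among the tested genes.

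Cholesterol synthesis, which draws on the same acetyl-CoA and on SREBP control, had the most lower genes of the lists. Of 21 tested genes, 14 fell in Dll1+ cells, against 7.04% of all genes, and 0 rose (0 at an unadjusted p under 0.05 and 0 in DESeq2), with a median log2 fold change of -0.42. Like the other lists, this list was chosen with earlier results of these data known. The comparison with the share of all genes is therefore a description and carries no test. Idi1, the isopentenyl diphosphate isomerase, fell from 58.1 to 26.7 CPM in GFP mouse 1, 54.5 to 27.1 in GFP mouse 2, 68.8 to 34.7 in mCh mouse 1 and 51.9 to 28.2 in mCh mouse 2. It fell by 0.999 ± 0.06 on the log2 scale, and Fdps, which makes farnesyl diphosphate, fell by 0.89 ± 0.07 (adjusted p = 0.0053 for each in edgeR). The test of the difference between reporters called 0 of the 21 genes (2 higher and 0 lower at an unadjusted p under 0.05, and 0 in DESeq2). The number that fell was 6 without GFP mouse 1, 7 without GFP mouse 2, 5 without mCh mouse 1, 15 without mCh mouse 2 and 9 without the replicate block. Calls over all genes numbered 433, 779, 405, 2401 and 1207 in these fits, against 2568 in the main fit.

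Of 20 genes of SREBP control other than Srebf1, 1 fell (Srebf2) and 0 rose (3 at an unadjusted p under 0.05, and 2 in DESeq2), with a median of 0.03. These counts stand beside 7.04% of all genes lower and 6.98% higher in edgeR. DESeq2 called 2 lower, where it called 4362 of all genes and edgeR 2568. Srebf2, the SREBP best known for cholesterol genes, was 210.4 and 156 CPM in Dll1- and Dll1+ cells of GFP mouse 1, 201 and 154 in GFP mouse 2, 256 and 211 in mCh mouse 1, and 214 and 178 in mCh mouse 2 (log2 fold change -0.34 ± 0.06, adjusted p = 0.021 in edgeR). Its call was lost without the replicate block and without GFP mouse 1, GFP mouse 2 or mCh mouse 1. Calls over all genes numbered 1207, 433, 779 and 405 in these fits, against 2568 in the main fit. Insig1, which holds SREBPs in the endoplasmic reticulum and is itself an SREBP target, was at -0.36 ± 0.10 on the log2 scale (adjusted p = 0.069 in edgeR), and Nr1h2, the oxysterol receptor LXRβ, at 0.23 ± 0.06 (adjusted p = 0.055 in edgeR).

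The last 3 lists hold genes that use or take up fatty acids, to be read against 7.04% of all genes lower and 6.98% higher. Among 15 glycerolipid genes 3 fell (Gpam, Agpat5 and Dgat2) and 0 rose (2 at an unadjusted p under 0.05, and 2 in DESeq2), with a median of -0.10. Gpam, the mitochondrial glycerol-3-phosphate acyltransferase, fell by 0.41 ± 0.08 on the log2 scale (adjusted p = 0.030 in edgeR). Among 14 uptake and activation genes, the transporter Slc27a1 rose by 0.53 ± 0.07 and the fatty acid binding protein Fabp5 fell by 0.59 ± 0.08 (adjusted p = 0.011 for each in edgeR), with a median of -0.21. DESeq2 called 2 higher and 3 lower of these. Slc27a1 lost its call without mCh mouse 1, and Fabp5 without GFP mouse 1, mCh mouse 1 or the replicate block. Among 25 oxidation genes 3 fell, among them the peroxisomal Hsd17b4 (-0.40 ± 0.07, adjusted p = 0.018 in edgeR), and 1 rose, with a median of -0.08. DESeq2 called 5 lower and 2 higher of these. Over all genes DESeq2 called 4362 and edgeR 2568, so the DESeq2 counts of these 3 lists stand beside a larger share. Leaving out GFP mouse 1, GFP mouse 2 or mCh mouse 1 left 0 oxidation and 0 glycerolipid genes past the threshold. Calls over all genes also fell in these fits, from 2568 to 433, 779 and 405.

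**Figure D5:**
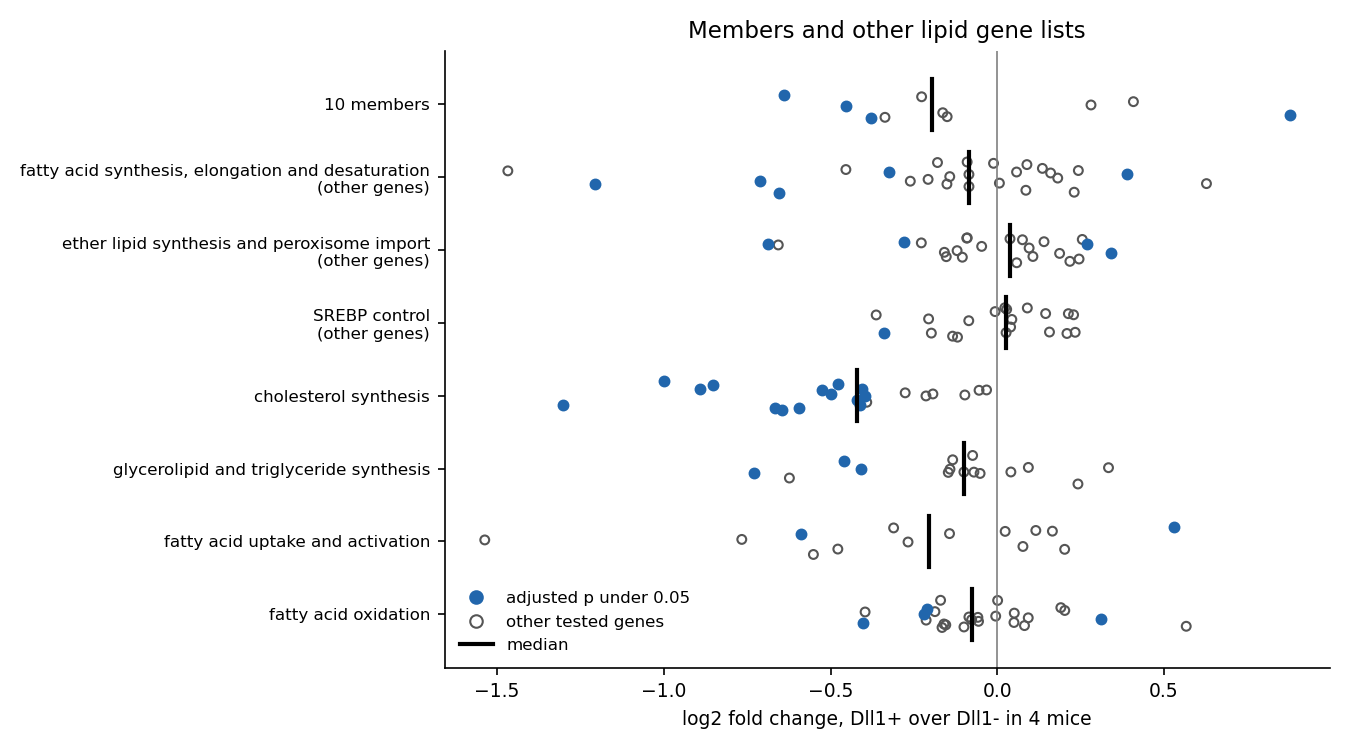
Fitted log2 fold change, Dll1+ over Dll1- in 4 mice, of the 10 genes and of 7 lists of other lipid genes, 1 point per gene, filled where the adjusted p was under 0.05, with the median as a bar. The cholesterol synthesis points lie below 0 with a median of -0.42, whereas the other lists have medians between -0.21 and 0.04.

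Between the reporter lines in Dll1- cells, the lists differed in direction. The median log2 fold change was -0.53 for the 10 genes, -0.10 for SREBP control and -0.05 for ether lipid synthesis and peroxisome import. It was between 0.11 and 0.31 for the other lists and 0.01 for all tested genes. Of 20 SREBP control genes 4 were lower and 1 higher, against 17.9% of all genes lower and 18.7% higher. Of 23 ether lipid and peroxisome genes 3 were lower and 3 higher. Against 18.7% of all genes higher and 17.9% lower, cholesterol synthesis had 5 of 21 genes higher and 0 lower (1 at an unadjusted p under 0.05, and 0 in DESeq2) in mCh mice, among them Mvd (0.99 ± 0.17, adjusted p = 0.0058 in edgeR) and Mvk (0.93 ± 0.15, adjusted p = 0.0045 in edgeR), both enzymes of the mevalonate pathway. Mid1ip1 was higher by 0.68 ± 0.13 (adjusted p = 0.0074 in edgeR), and Gpam was lower, at -0.79 ± 0.12 (adjusted p = 0.0036 in edgeR). Of the 14 uptake and activation genes 6 were higher and 2 lower. Lpl, the secreted lipase that frees fatty acids from lipoproteins, was at 59.9 and 154 CPM in the mCh Dll1- libraries and at most 11.2 CPM in GFP libraries (log2 fold change 3.29 ± 0.46, adjusted p = 0.0033 in edgeR), and it was highest in the 2 libraries with the highest fibroblast sums. The ligase Acsl4 was lower, at -0.84 ± 0.10 (adjusted p = 0.0023 in edgeR). Leaving out either GFP mouse left 0 genes of these lists past the threshold in this comparison.

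Across the 8 libraries, the genes whose log2 CPM was most like that of Fasn, out of 10247 genes averaging 10 CPM or more, were Lrpprc (Pearson r = 0.96), Insig1 (0.95), Lancl2 (0.93), Arhgef19 (0.92) and Cdc7 (0.92). Among those most like Scd2 were Trappc10 and Brd3 (0.99 each), Psme4 (0.97) and Ttc9c (0.96). These values describe 8 libraries that come in pairs from 4 mice, and the highest of many correlations are high by choice.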

How the data were processed

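Illumina TruSeq Stranded libraries were sequenced from sorted tumor cells of 4 mice, 8 libraries in all. Reads had been quantified by the authors against GENCODE M20 (GRCm38.p6) using salmon, and tximport gave the deposited gene-level estimated counts, which are whole and not normalized. The setting for strand is not given in the sources used here. Symbols and positions came from GENCODE M21, which matched 53668 of 53697 IDs.

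Groups, replicates and mouse were taken from the labels. Genes were tested in R 4.3.3 with edgeR 4.0.16: TMM scaling, filterByExpr on the Dll1+ and Dll1- groups, a robust quasi-likelihood F test, and Benjamini-Hochberg adjustment over 18322 genes at a threshold of 0.05. The model over 4 mice held Dll1 status and mouse, after the study's 2-factor model. A second held mouse and 1 Dll1 effect per reporter, and the reporter lines were compared on the 4 group means, without a mouse term. Log2 CPM per library used a prior count of 2. Libraries of 1 mouse are paired because they come from the same animal. The correlation of their deviations from the group means was -0.05 in GFP and 0.55 in mCh mice.

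The members and gene lists were chosen with earlier results of these data known. The genes named were all members and, from each list, the 3 with the lowest p over 4 mice and the 2 with the lowest p between reporters in Dll1- cells. Thrsp, Mecr, Tmem86a, Krt5, Trp63 and Hba-a1, outside this rule, were named after their values were seen to complete small counts. Some genes that this rule would name are not reported here. Promoters came from RefSeq, 31-base words from GENCODE M21 transcripts. Scripts were tested on simulated counts. Alternatives were RLE scaling, DESeq2 1.42.0, no filter, at least 10 counts in every library, no replicate block, the 4 libraries of a comparison alone, and leaving out each mouse. Separate mice are the replicates. In the models with a mouse term, p-values measure how the within-mouse differences vary from mouse to mouse. In the comparison of the reporter lines they measure the spread of libraries around the group means. That comparison treats both libraries of a mouse as separate, although they come from the same animal.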

Additional observations from a re-analysis of the deposited data

Results flagged for a closer look

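A sample far from the others was sought with Dixon's test in 51 groups of 4 values, for which chance alone flags about 1 in 20. The within-mouse differences of Acaca were flagged, with a gap of 0.99 of the whole range, because GFP mouse 2 (-0.34) lay apart from the other 3 mice (-0.11 to -0.10). The within-mouse differences of Srebf1 were flagged at 0.89, again through GFP mouse 2 (0.10, against 0.33 to 0.36). The Dll1- levels of Acly were flagged at 0.87, since mCh mouse 2 (342 CPM) lay below the others (399 to 408 CPM). The within-mouse differences of Nr1h2 were flagged at 0.91, through GFP mouse 2 (0.08, against 0.28 to 0.30).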

How the results depend on the processing

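Over 4 mice, Far1 and Acly kept their direction and their call in all 9 alternatives. The log2 fold changes of the 10 genes over 4 mice kept their sign in each alternative, and none of the called values reversed. For the 10 genes, 520 of 560 values across comparisons and alternatives moved by less than the spread between mice or libraries. Of the pathway genes named by the rule, 229 values stayed on the same side of the threshold, 77 lost the call and 9 gained it, in no case with another sign.

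Without the replicate block the genes called numbered 1207 over 4 mice (2568 with it), 274 in GFP mice (1673), 212 in mCh mice (2154) and 0 for the difference between reporters (13). Of the 10 genes, this paired term decided 2 of 3 lower calls over 4 mice (1 without it), and without it 0 were called higher or lower in GFP mice and 0 in mCh mice. DESeq2 called 4362 genes over 4 mice and 540 for the difference, and of the 10 genes 3 higher over 4 mice, 3 higher in mCh mice and 5 lower between reporters in Dll1- cells. With no filter, 3001 genes were called in GFP mice, 3637 in mCh mice and 1143 for the difference, and of the 10 genes 2 higher over 4 mice, 2 higher in mCh mice and 6 lower between reporters in Dll1- cells. At least 10 counts in every library gave 44 for the difference. In the 4 mCh libraries alone 0 genes were called, and 0 of the 10 in either direction, whereas the 4 GFP libraries alone gave 2337 genes and, of the 10, 4 lower and 1 higher.

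Leaving out 1 mouse gave 405 to 2401 genes over 4 mice, 2 to 2355 in GFP mice, 905 to 1315 in mCh mice, 0 to 717 for the difference, 0 to 7828 between reporters in Dll1- cells and 0 to 6897 in Dll1+ cells. Where an arm was left with 1 library, that library was assumed to vary like the others. Of the 10 genes, leaving out 1 mouse gave 1 to 2 lower over 4 mice, 0 to 1 higher and 0 to 4 lower in GFP mice, 0 to 1 lower in mCh mice, 0 to 6 lower between reporters in Dll1- cells and 0 to 4 in Dll1+ cells. The causes were not tested. The 10 genes had at least 1202 counts in each library, and the part of depth was not tested. Only 2 mice carried each reporter.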
